A study of Mus musculus with 4 samples.

Results

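The accessible chromatin of 10 genes of myoblast adhesion and fusion was examined in WT and Tet2 KO primary myoblasts. The members were the fusion genes Tmem8c (also called Mymk), Gm7325 (also called Mymx) and Myof, the cadherins Cdh2 and Cdh15, the immunoglobulin family members Ncam1, Alcam and Vcam1, and the tetraspanins Cd9 and Cd81. Every peak from 50 kb upstream of the start to 50 kb past the end of a member was taken, on mm9 with GENCODE M1 gene models. This gave 64 of the 25775 WT peaks and 11 of the 3836 Tet2 KO peaks.

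Mononucleated myoblasts recognise one another through cadherins and immunoglobulin family proteins, and then merge their membranes to form multinucleated myotubes. Myomaker (Tmem8c) and myomixer (Gm7325) are muscle proteins that act in the membrane fusion step itself, and myoferlin (Myof) is a membrane protein of the dysferlin family that is needed for full myoblast fusion. M-cadherin (Cdh15) and N-cadherin (Cdh2) join neighbouring muscle cells, Ncam1, Alcam and Vcam1 are cell surface adhesion molecules, and Cd9 and Cd81 organise other membrane proteins into microdomains and are known regulators of fusion. MyoD, the transcription factor of the myoblast lineage, binds E boxes, of which CAGCTG is the form it favours, and Tet2 oxidises 5-methylcytosine, the first step of active DNA demethylation.

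The cells were satellite cells of hindlimb skeletal muscle, sorted as CD45-, CD11b-, CD31-, Sca1-, CD34+ and integrin a7+, and kept in culture for at least 3 days, when they were MyoD+ myoblasts. WT animals were C57BL/6, and Tet2 KO animals carried a deletion of exon 3 of Tet2 from the germ line, so it was not specific to muscle. The labels give no age, while the study's methods name male mice of a set age range unless stated otherwise. The labels give 2 samples of each genotype and 5000 cells in each library, and the peaks analysed here form 1 list for each genotype, which no label ties to a replicate. Differences between the genotypes therefore have no replicate check and no test, and the Wilson 95% intervals below cover counting error only. Of 8 myoblast markers Myod1, Des and Chrna1 had a promoter peak in both lists and the other 5 (Myf5, Pax7, Itga7, Cdh15 and Msc) in neither, where 30.2% of all coding genes had a WT promoter peak. Of 12 markers of blood, endothelium, fibro-adipogenic cells and glia only Pecam1 had one, in the WT list. Promoter peaks of these lists are thus a weak check of the cell type, and the part of other cells in the results was not tested. In a bulk library fewer cells with an open site and a less open site in each cell cannot be told apart.

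A peak's fold enrichment divides the fragment pileup at its summit by that of the background, each raised by 1. The number of fragments covering the summit was solved from that ratio and the -log10 p. The most frequent background value of a WT peak was 0.649 fragments, and that of a Tet2 KO peak 1.38, which is 2.13 times as high. Peaks on different chromosomes shared these values, so the background was not local at every peak. Read totals are unknown, and the part of depth in the results was not tested. Peak numbers run along the genome, and both lists skip numbers (9707 in WT and 4403 in Tet2 KO), so a list is a part of what was called. Over the 10 windows, each reckoned from the last listed peak before it to the first after it, 30 WT and 52 Tet2 KO numbers were skipped. For the members' peaks described singly, a missing Tet2 KO peak is given with how many Tet2 KO numbers were skipped between the listed peaks on either side. Where none was skipped, no peak was called there. A stretch can hold several WT peaks, which then share the same skipped numbers.

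The sequences below are, for 6 members, the WT peak with the highest fold among those nearest to the member's start. For Myof this is the peak with the highest fold of all 64, and it holds no CAGCTG. For Cdh15 the peak with the most CAGCTG copies was chosen instead, after its values were seen. The set leans towards peaks with CAGCTG, since the Cdh15 peak chosen by fold and the Cd9 peak held none and are not printed. The sequences show the arrangement of the motifs within these elements. All are plus-strand mm9 sequence, peaks longer than 300 bp are cut to 300 bp at the summit, and capitals mark CAGCTG or the AP-1 motif TGANTCA.
Tmem8c (chr2:26925217-26925498): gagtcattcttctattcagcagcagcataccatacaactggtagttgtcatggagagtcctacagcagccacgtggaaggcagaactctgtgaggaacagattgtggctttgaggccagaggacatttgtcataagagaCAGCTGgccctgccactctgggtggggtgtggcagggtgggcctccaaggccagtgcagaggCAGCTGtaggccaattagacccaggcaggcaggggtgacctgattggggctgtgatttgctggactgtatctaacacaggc
Gm7325 (chr17:45753069-45753368): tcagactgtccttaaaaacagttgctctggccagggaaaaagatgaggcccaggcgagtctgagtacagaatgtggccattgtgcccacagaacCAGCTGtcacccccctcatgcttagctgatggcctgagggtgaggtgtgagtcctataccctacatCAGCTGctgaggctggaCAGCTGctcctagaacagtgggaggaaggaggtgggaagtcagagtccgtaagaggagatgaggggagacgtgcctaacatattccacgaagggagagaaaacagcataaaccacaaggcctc
Cdh15 (chr8:125374606-125374905): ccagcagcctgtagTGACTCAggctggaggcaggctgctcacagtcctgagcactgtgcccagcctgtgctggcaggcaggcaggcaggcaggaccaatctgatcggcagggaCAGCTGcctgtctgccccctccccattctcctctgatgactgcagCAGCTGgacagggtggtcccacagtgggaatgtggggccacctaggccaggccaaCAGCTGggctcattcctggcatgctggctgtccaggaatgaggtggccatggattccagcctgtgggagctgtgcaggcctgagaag
Ncam1 (chr9:49471274-49471573): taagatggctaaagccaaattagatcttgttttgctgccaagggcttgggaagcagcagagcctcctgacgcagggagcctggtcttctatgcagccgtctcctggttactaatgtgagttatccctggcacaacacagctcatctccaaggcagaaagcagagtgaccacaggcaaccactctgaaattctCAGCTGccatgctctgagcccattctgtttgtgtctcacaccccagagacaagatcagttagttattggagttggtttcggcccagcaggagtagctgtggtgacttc
Vcam1 (chr3:115816995-115817126): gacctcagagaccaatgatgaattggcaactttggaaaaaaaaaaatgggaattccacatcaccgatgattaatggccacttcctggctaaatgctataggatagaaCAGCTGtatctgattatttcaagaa
Cd81 (chr7:150248585-150248884): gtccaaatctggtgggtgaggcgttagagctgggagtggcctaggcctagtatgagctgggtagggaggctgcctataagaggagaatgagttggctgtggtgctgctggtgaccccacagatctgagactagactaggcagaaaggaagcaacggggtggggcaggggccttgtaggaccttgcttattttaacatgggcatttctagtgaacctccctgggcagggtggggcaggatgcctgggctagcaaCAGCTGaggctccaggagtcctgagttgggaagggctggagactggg
Myof (chr19:37970757-37970972): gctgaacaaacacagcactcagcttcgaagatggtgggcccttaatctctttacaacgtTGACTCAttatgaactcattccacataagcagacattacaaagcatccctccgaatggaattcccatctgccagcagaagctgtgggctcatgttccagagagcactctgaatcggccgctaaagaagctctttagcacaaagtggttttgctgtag

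The Tmem8c stretch holds 2 CAGCTG copies with starts 62 bp apart, the Gm7325 stretch holds 3 copies 66 and 17 bp apart, and the Cdh15 stretch holds 3 copies 45 and 55 bp apart. Among all 17866 distal WT peaks (those at an intron or intergenic position), 12.1% held 2 or more copies and 2.58% held 3 or more. Of the members' 50 distal WT peaks, 5 (10%) held 2 or more and 2 (4%) held 3 or more. Of the 7 elements shown, those of Gm7325 and Cdh15 were overlapped by a listed Tet2 KO peak, and the other 5 were not. Of these 5 only that of Myof lay where no Tet2 KO number was skipped. Over all distal WT peaks 11% were overlapped, and 29.9% of those with 3 or more copies.

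All 10 members had at least 1 WT peak in their window, and 7 had a Tet2 KO peak. Over 22350 coding genes, 74.3% had a WT peak and 31.4% a Tet2 KO peak in a window drawn the same way, with a median of 2 WT peaks. The members had 4 to 11 WT peaks each and 0 to 2 Tet2 KO peaks each. Per 100 kb of window, 9 of 10 members had more WT peaks than the median coding gene (1.60), and the range ran from 1.31 at Alcam to 5.01 at Vcam1. Vcam1 exceeded 91.3% of coding genes in this measure and Alcam 45.7%. The members had 5.82 WT peaks for each Tet2 KO peak, and the whole lists 6.72.

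**Figure D1:**
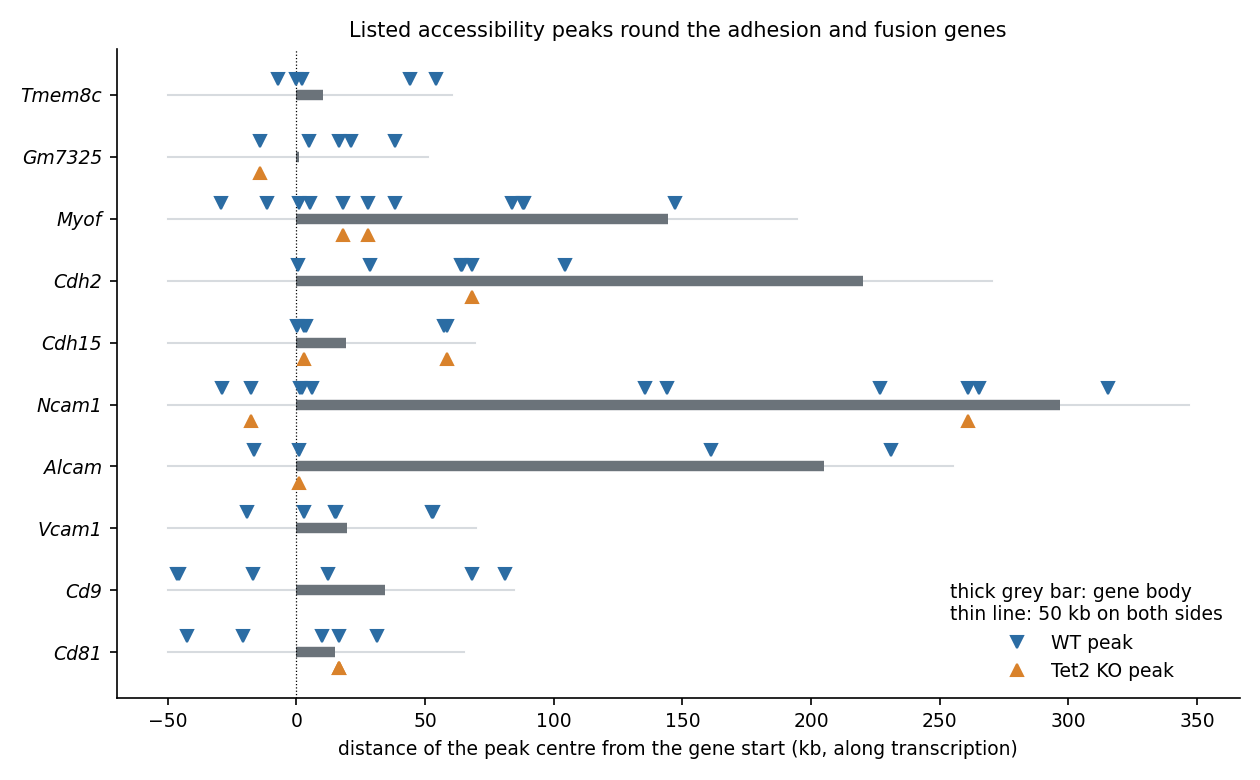
Position of the peak centres (kb from the gene start, along the direction of transcription) in the 10 windows, with WT peaks above and Tet2 KO peaks below each gene body. Each of the 11 Tet2 KO peaks lies at a WT peak, as 3712 of the 3836 of the whole list do. Tmem8c, Vcam1 and Cd9 have no Tet2 KO peak.

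All 11 Tet2 KO peaks overlapped a WT peak, as did 3712 of the 3836 peaks of the whole Tet2 KO list. Of the 64 WT peaks, 10 (15.6%, 8.71 to 26.4%) overlapped a Tet2 KO peak. Over the whole WT list 14.1% did, which lies inside the interval of the members. The windows of the 3 fusion genes held 21 WT and 3 Tet2 KO peaks, those of the 2 cadherins 11 and 3, those of the 3 immunoglobulin family genes 21 and 3, and those of the 2 tetraspanins 11 and 2. The shared part of the WT peaks was 14.3% (4.98 to 34.6%) for the fusion genes and 27.3% (9.75 to 56.6%) for the cadherins. It was 14.3% for the immunoglobulin family genes and 9.09% (1.62 to 37.7%) for the tetraspanins. These intervals overlapped one another, and the roles could not be told apart by this count.

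Of the fusion genes, Tmem8c (chromosome 2, 26917156 to 26927699, minus strand) had 5 WT peaks and no Tet2 KO peak. Its promoter peak, at 26927613 to 26927745, had a fold enrichment of 5.54 and 16 fragments at the summit, and 10.5% of all WT peaks had a lower fold. A stronger peak stood in an intron 2.34 kb into the gene, at 26925217 to 26925498, with a fold of 11.7 and 32 fragments. Both held 2 CAGCTG copies, and no peak of this window held TGANTCA. The other 3 WT peaks lay nearest to the starts of other genes, with 2 of them at the promoters of Slc2a6 and Adamtsl2. In the Tet2 KO list the stretch between the peaks on either side of the Tmem8c start was 869 kb long and skipped 3 numbers, so whether an unlisted peak stood there cannot be told.

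Gm7325 (chromosome 17, 45737916 to 45739051, minus strand), the myomixer gene, had 5 WT peaks and 1 Tet2 KO peak. None lay at its promoter, and 2 WT numbers were skipped in the 18.7 kb around its start. Of the 5 WT peaks, 3 were at the promoters of Slc35b2 and Slc29a1, and only the peak 14.2 kb upstream had the Gm7325 start as the nearest coding start. That element, at 45753013 to 45753391, had a fold of 11.6 and 28 fragments in WT. The Tet2 KO peak inside it, at 45753083 to 45753282, had a fold of 5.76 and 13 fragments, and contained all 3 CAGCTG copies. The summits were 32 bp apart.

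Myof (chromosome 19, 37973526 to 38118067, minus strand) had 11 WT peaks, of which 7 were in its introns, and 2 Tet2 KO peaks. Both Tet2 KO peaks were intronic, 18.1 and 27.9 kb into the gene. The peak at 27.9 kb had a fold of 14.8 and 30 fragments in WT, and 9.23 and 21 fragments in Tet2 KO, with summits 2 bp apart. The peak at 18.1 kb had a fold of 9.12 and 29 fragments in WT and a fold of 7.75 and 19 fragments in Tet2 KO, with summits 4 bp apart. The peak with the highest fold enrichment of all 64 lay 2.66 kb past the end of Myof, with a fold of 16 and 31 fragments, and had no Tet2 KO counterpart, with no number skipped there. Of all WT peaks 99.3% had a lower fold than this one. Of the 9 WT peaks of Myof without a Tet2 KO peak, 5 lay where no Tet2 KO number was skipped, so no peak was called there in that library. A further WT peak stood 1.11 kb into the gene with a fold of 9.68, without a listed Tet2 KO peak where 4 numbers were skipped, and outside the promoter as defined here (1000 bp upstream to 100 bp downstream of a start).

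Of the cadherins, Cdh15 (chromosome 8, 125371866 to 125391297, plus strand), which encodes M-cadherin, had 5 WT and 2 Tet2 KO peaks, and 1 of the Tet2 KO peaks lay in its first 3 kb. That WT peak, at 125374574 to 125374905 and 2.87 kb from the start, had a fold of 7.37 and 32 fragments. Its Tet2 KO counterpart, at 125374589 to 125374777, had a fold of 4.87 and 21 fragments. The background there was 3.48 fragments in WT against 3.52 for the Tet2 KO library. The WT peak 344 bp downstream of the start (fold 5.49, 23 fragments) had no listed Tet2 KO peak, and 1 number was skipped there. The one at 3.81 kb (fold 4.18, 18 fragments) had none where no number was skipped. The other Tet2 KO peak lay 58.7 kb downstream of the start, within Ankrd11, with a fold of 11.5 and 35 fragments in WT and a fold of 5.66 and 16 fragments in Tet2 KO.

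Cdh2 (chromosome 18, 16747386 to 16967755, minus strand), which encodes N-cadherin, had 6 WT peaks, all inside the gene, and 1 Tet2 KO peak. Its promoter peak, at 16966955 to 16967145, counts as one through another annotated start 79 bp away, since the gene start was 705 bp away. This peak had a fold of 6.90 and 17 fragments and no Tet2 KO counterpart. The strongest WT peak, 28.5 kb into the gene, had a fold of 10 and 21 fragments and none either. Both peaks lay in the same stretch of 4559 kb between listed Tet2 KO peaks, in which 4 numbers were skipped. The Tet2 KO peak lay 68.3 kb into the gene, with a fold of 8.96 and 29 fragments in WT and a fold of 6.62 and 16 fragments in Tet2 KO. None of the 6 WT peaks held CAGCTG, and 3 held TGANTCA.

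Alcam (chromosome 16, 52249109 to 52454187, minus strand) was the only member with a peak at its own promoter in both lists. The WT peak, at 52453121 to 52453436, had a fold of 13.7 and 34 fragments, and the Tet2 KO peak, at 52453099 to 52453414, had a fold of 8.94 and 23 fragments. Their overlap was 294 bp, and the Tet2 KO fold exceeded that of 96.3% of the Tet2 KO list. The peak held 26 CpG in WT coordinates and no CAGCTG. It counts as a promoter through shorter annotated transcripts, the nearest start of which was 511 bp away, since the start of the longest model was 909 bp away. The other 3 WT peaks, with folds from 8.38 to 11.7, had no listed Tet2 KO peak, and 2 to 4 numbers were skipped at each.

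Ncam1 (chromosome 9, 49310257 to 49607027, minus strand) had 11 WT peaks, of which 8 were inside the gene, and 2 Tet2 KO peaks. The Tet2 KO peak 17.5 kb upstream had a fold of 7.97 and 18 fragments against 9.59 and 20 fragments in WT, and these were the 2 most alike fragment numbers among the 11 pairs. The other Tet2 KO peak, 261 kb into the gene, had a fold of 4.38 and 11 fragments against 11.1 and 37 fragments in WT, the pair that was furthest apart. This peak lay inside the overlapping gene Gm11149 as well, and its nearest coding start was that of Gm17616, 3414 bp away. Among the WT peaks whose nearest coding start was one of Ncam1, that of highest fold lay 136 kb into the gene, 93380 bp from that start. It had a fold of 14.2 and 37 fragments and no listed Tet2 KO peak, and 3 numbers were skipped there. Between the listed WT peaks on either side of the Ncam1 start 1 number was skipped, and the closest listed peak ended 1488 bp into the gene.

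Vcam1 (chromosome 3, 115812938 to 115832606, minus strand) had 6 WT peaks and no Tet2 KO peak. All 6 had Vcam1 as the nearest coding start, with folds from 5.76 to 8.25 and 9 to 15 fragments. They lay in the same stretch of 2531 kb between listed Tet2 KO peaks, in which 8 numbers were skipped. The 3 in its introns lay 3.00, 15.0 and 15.5 kb into the gene. No WT number was skipped around the Vcam1 start, so no WT peak was called within 2954 bp of it.

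The tetraspanin genes had no peak at their own promoters in either list, and no WT number was skipped around either start. The closest listed WT peak was 12450 bp from the start of Cd9 (chromosome 6, 125410284 to 125444809, minus strand) and 9941 bp from that of Cd81 (chromosome 7, 150238644 to 150253839, plus strand). Cd9 had 6 WT peaks with folds from 5.17 to 9.25 and no Tet2 KO peak. In the stretch of 2637 kb between the listed Tet2 KO peaks on either side of its start 8 numbers were skipped. The Cd9 peak of highest fold among those nearest to its start lay 33.6 kb past the end of the gene, with a fold of 8.97 and 20 fragments. Cd81 had 5 WT peaks, of which 1 was inside the gene, 10.2 kb from the start, with a fold of 10.1 and 27 fragments and no listed Tet2 KO counterpart where 1 number was skipped. Both Tet2 KO peaks of its window lay at the promoter of the neighbour Tssc4, inside a single WT peak of 621 bp with 29 fragments, with folds of 4.17 and 4.96 against 9.35 in WT.

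**Figure D2:**
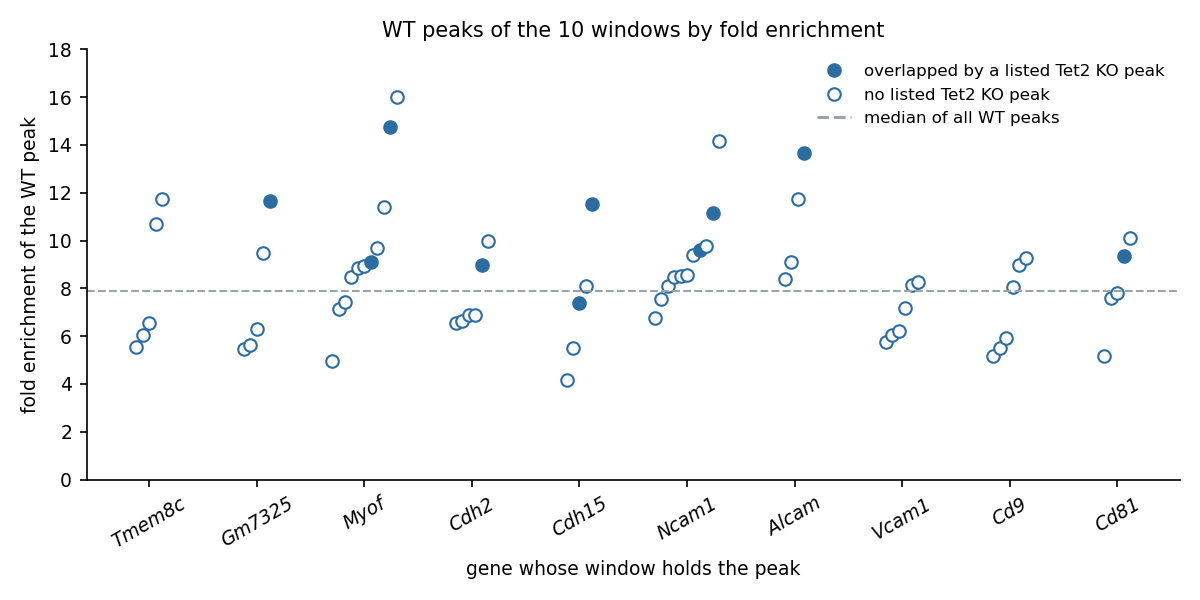
Fold enrichment of each of the 64 WT peaks (vertical axis) by the gene whose window holds it, with filled points for the 10 peaks that a Tet2 KO peak overlaps and a dashed line at the median of all WT peaks (7.89). The filled points lie between 7.37 and 14.8, while open points reach 16 at Myof, 14.2 at Ncam1 and 11.7 at Tmem8c.

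Of the members, 3 had a WT and 1 a Tet2 KO peak at their own promoter, where 30.2% of coding genes had a WT and 7.91% a Tet2 KO promoter peak. Of the 64 WT peaks, 11 (17.2%, 9.88 to 28.2%) were at a promoter, and 8 of these 11 at a promoter of another gene. The whole WT list had 27.3% at promoters, inside that interval. With promoters of 3000 bp on either side of a start the members' share was 40.6%. The share of the whole list was not computed with that definition, so 40.6% cannot be set against 27.3%. Distal peaks made up 50 of 64 (78.1%, 66.6 to 86.5%), against 69.3% of the whole list. Of the 50, 7 (14.0%, 6.95 to 26.2%) overlapped a Tet2 KO peak, against 11% of all distal WT peaks.

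In each of the 11 pairs the Tet2 KO summit had fewer fragments and a lower fold than the WT summit. Fragments ranged from 11 to 23 at Tet2 KO summits and from 20 to 37 at the WT partners. The median ratio of Tet2 KO to WT fragments was 0.586, and that of the background, not local at every peak, was 1.01. Over all 3712 pairs of the lists these were 0.552 and 1.15, and 96.3% of pairs had fewer fragments in Tet2 KO.

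**Figure D3:**
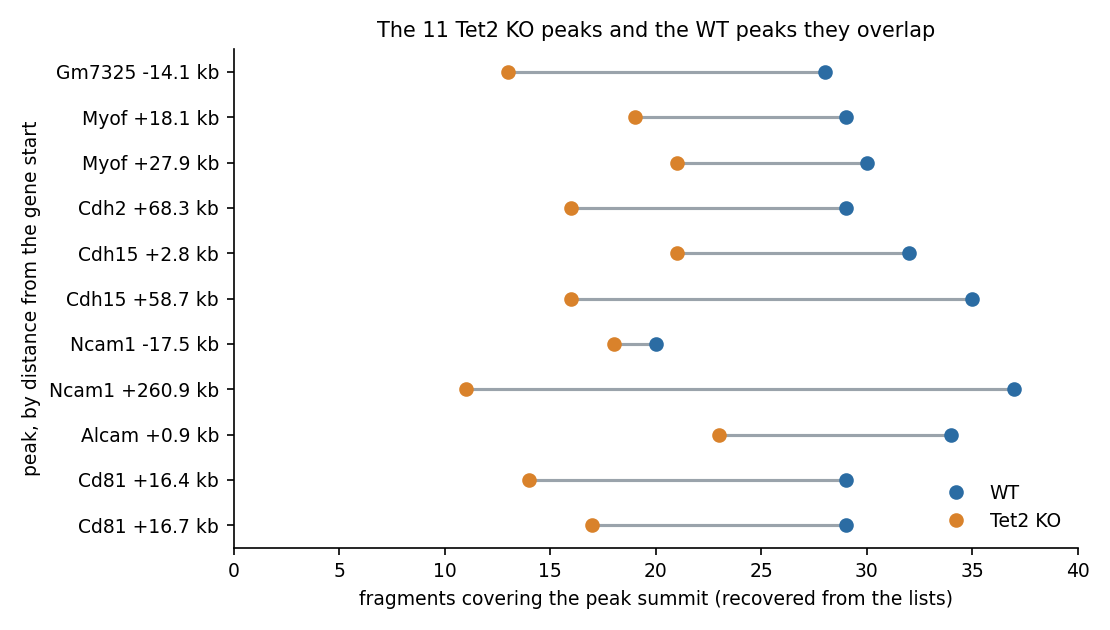
Fragments covering the summit (horizontal axis) of each of the 11 Tet2 KO peaks and of the WT peak it overlaps, labelled by gene and distance from the gene start. The Tet2 KO point lies to the left in all 11 pairs, from 18 against 20 upstream of Ncam1 to 11 against 37 inside Ncam1.

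The WT peaks that were overlapped were the stronger ones. Their median fold was 10.4 and their median width 391.5 bp (n = 10), against 7.93 and 195 bp for the 54 others. When all WT peaks were split into 5 equal groups by fold, 0 of 13 and 0 of 10 members' peaks in the groups with the lowest folds were overlapped, which allows shares of up to 23.1% and 30%. In the next groups 1 of 15, 4 of 15 and 5 of 11 were, and the whole list had 1.75%, 3.34%, 7.33%, 16.1% and 41.9% from the lowest to the highest group. The members' share in the highest group was 45.5% (21.3 to 72.0%). The 6 others of that group included the strongest peaks of Myof, Ncam1 and Tmem8c.

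**Figure D4:**
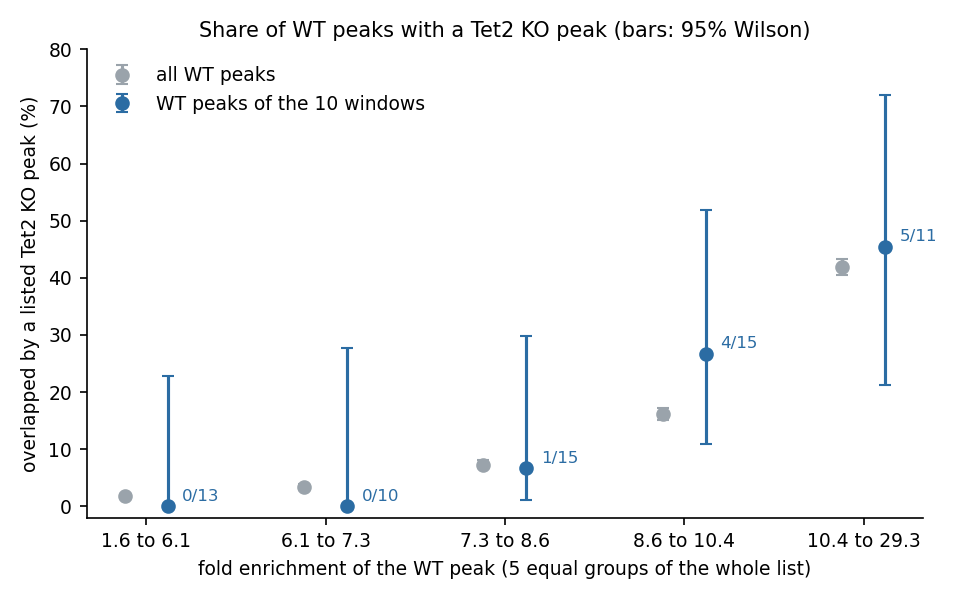
Share of WT peaks that a listed Tet2 KO peak overlaps (vertical axis, %, with Wilson 95% bars) in 5 equal groups of the WT list by fold enrichment, for all WT peaks and for those of the 10 windows, whose counts are printed. The shares are highest in the last group, at 41.9% of all and 5 of 11 of the members' peaks, and the members' bars hold the value of the whole list in each group.

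A missing Tet2 KO peak was seldom certain. Of the 54 WT peaks without one, 8 (14.8%) lay where no Tet2 KO number was skipped, 5 of them in the Myof window, 2 in that of Cdh15 and 1 in that of Cd81. For the other 46 at least 1 number was skipped in the stretch between the listed Tet2 KO peaks on either side. Over the whole list 16.2% of such WT peaks lay where none was skipped.

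CAGCTG, the E box of MyoD, which reads the same on both strands, was in 22 of 64 WT peaks (34.4%, 23.9 to 46.6%) and in 36% of all WT peaks. Of the 50 distal peaks 20 (40%) held it, against 42.6% of all distal ones. Of these 20, 6 (30%, 14.5 to 51.9%) overlapped a Tet2 KO peak, namely 1 at Gm7325, 1 at Cdh15, 2 at Myof and 2 at Ncam1, and of the 30 without CAGCTG 1 did (3.33%, 0.591 to 16.7%), the one in Cdh2. Over all distal WT peaks the shares were 14.3% with and 8.53% without CAGCTG. The peaks with CAGCTG were also wider and stronger, with a median of 304.5 bp and a fold of 9.02 against 191.5 bp and 7.58, so motif, width and strength cannot be told apart in so few peaks. The intervals of the members with CAGCTG and without it overlapped.

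Motifs of other factors were searched on both strands. TGANTCA, the AP-1 motif, was in 26 of 50 distal peaks (52.0%, 38.5 to 65.2%), against 47.1% of all distal ones. It was in none of the 11 promoter peaks, which allows a share of up to 27.3%, against 8.87% of all WT promoter peaks. By fusion gene, it was in none of the 10 WT peaks of the Tmem8c and Gm7325 windows, which allows a share of up to 30%. In the Myof window it was in 6 of 11, and the share of all WT peaks was 36.1%. Several of the Tmem8c and Gm7325 peaks lay at promoters, where the share over the whole WT list was 8.87%. CAGCTG was in 4 of 5 peaks of the Tmem8c window, 2 of 5 of the Gm7325 window and 6 of 11 of the Myof window. Those of the Tmem8c window included peaks nearest to the starts of 5930434B04Rik and Adamtsl2. Of all WT peaks 36% held CAGCTG, with 17.6% of those at promoters and 42.6% of distal ones. The TEAD motif, GGAATG or CATTCC, was in 15 of the 50 (30%) against 22.4%, and the RUNX motif, TGTGGT or ACCACA, in 15 (30%) against 33.4%. CAGGTG or CACCTG, an E box that other factors share, was in 7 (14.0%) against 12.8%, and the MEF2 motif in 2 (4%) against 4.21%. For the distal peaks, the share of each of these motifs over the whole WT list lay inside the members' interval. The Alcam peak 16.3 kb upstream and the Cd81 intron peak were the 2 with a MEF2 motif.

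Other genes of recognition, adhesion and fusion, 38 in all, were counted in the same windows. Of them 35 had a WT and 24 a Tet2 KO peak in the window, with 193 and 39 peaks in all, where 74.3% and 31.4% of coding genes did. A promoter peak was listed for 13 in WT and 7 in Tet2 KO, where 30.2% and 7.91% of coding genes had one. Anxa5, which encodes a phospholipid-binding annexin, had a promoter fold of 12.6 and 35 fragments in WT and of 8.97 and 27 fragments in Tet2 KO. Ehd1, which encodes a membrane-trafficking ATPase, had 10.2 and 28 fragments in WT and 6.62 and 21 in Tet2 KO. Ctnnd1, which encodes the cadherin-binding p120 catenin, had a promoter fold of 12.4 and 25 fragments in WT. No listed Tet2 KO peak was centred at its promoter, though 2 were listed in its window. Whether these overlapped the WT peak, or numbers were skipped there, was not checked. Cd82, a further tetraspanin gene, had a promoter peak in both, with highest folds of 6.20 and 4.77. The tetraspanin gene Cd151 and the adaptor gene Crk had a promoter peak in the Tet2 KO list alone, with folds of 5.01 and 4.73 and 20 and 11 fragments. Promoters were assigned at the peak centre, and whether a WT peak centred outside the promoter overlapped these peaks was not checked. Over the whole lists 1639 of 1666 Tet2 KO promoter peaks overlapped a WT peak, so these sites are not shown to be open in Tet2 KO alone.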

How the data were processed

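ATAC-seq was made in 2 WT and 2 Tet2 KO samples of primary myoblasts, and 1 peak list per genotype was analysed. The reads were trimmed, aligned to mm9 with Bowtie2, filtered for mapping quality and duplicates, and peaks called per sample with MACS2, while the submitters' processing notes also name CASAVA. Versions are not given in the sources used here, nor how peaks were removed after calling. The genotype of each list was taken from its name and its total, which matches the peak classes drawn in the study. The fold enrichment the authors deposited is a ratio of summit to background after 1 is added to both. The authors deposited the summit's -log10 p and -log10 q as well, and positions in bp.

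Fragment numbers were solved from the fold and the Poisson tail that MACS2 prints as -log10 p, to an error under 0.001. Read totals are unknown. An overlap needed 1 bp or more. Positions were assigned at the peak centre, first as promoter (from 1000 bp before to 100 bp after any annotated start), then exon, intron and intergenic, with GENCODE M1 models and mm9 sequence (NCBIM37). Shares have Wilson 95% intervals, and 3 counts were taken as the limit that a count of 0 allows. The members, the lists of other genes and the motifs were chosen with earlier results of these data known. Named singly were each Tet2 KO peak, each WT peak at a member's own promoter, and each member's WT peak of highest fold among those nearest to its start, and other single peaks and genes were chosen after their values were seen. The calculations were tested on simulated data. With 1 list per genotype no test was made. The alternatives were limits on -log10 q and fold, other windows, other overlaps, other promoters and the summit in place of the peak. The software was Python 3.11.15 with pandas 2.3.3, numpy 2.4.6, matplotlib 3.10.9 and scipy 1.17.1. The other data of the study are not used here.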

Additional observations from a re-analysis of the deposited data

How the results depend on the processing

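No paired analysis was possible because WT and Tet2 KO have 1 list each, and for the same reason no replicate could be left out. Of 35 recomputed values, 29 stayed within 1.5 times the count or within the 95% interval of the share, and 6 did not. The share of WT peaks with a Tet2 KO peak ran from 9.09% to 17.8% over 8 alternatives, and the share with CAGCTG from 28.1% to 40% over 7. With windows from 10 kb upstream to the gene end, 35 WT and 6 Tet2 KO peaks remained, since the windows are shorter. Tet2 KO peaks numbered 4 at a -log10 q of at least 10 and 7 at a fold of at least 5. The share of WT peaks at a promoter was 6.67% when only peaks nearest to a member's start were taken, since those at neighbours' promoters drop out, and 40.6% with promoters of 3000 bp on either side of a start.

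The values rest on 1 library per genotype, on lists that skip peak numbers, and on summits of 8 to 37 fragments in WT and 11 to 23 in Tet2 KO. A WT peak without a listed Tet2 KO peak is thus not shown to be closed.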
